A study of Mus musculus with 8 samples.

Results

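The genes described here carry the signal of transforming growth factor beta (TGF beta) from the cell surface to the nucleus. They are the ligand gene Tgfb1, the receptor genes Tgfbr1 and Tgfbr2, the signal transducers Smad2, Smad3 and Smad4, the inhibitory Smad7, and the nuclear co-repressors Ski and Skil. All probe sets whose array annotation gives one of these symbols as the only gene were taken. This gave 17 of the 22626 probe sets tested and 9 of the 12393 genes with a probe set of their own. Each probe set reads 1 stretch of a transcript, so a gene can have several.

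The RNA was that of splenic CD4 T cells of female mice, 8 to 12 weeks old, purified by flow cytometry. The groups were Ahr knockout mice (KO, AHR ko backcrossed to C57BL/6) given 10 µg/kg TCDD, KO mice given DMSO, wild type C57BL/6 mice (WT) given 10 µg/kg TCDD, and WT mice given DMSO. The dose or its solvent was injected into the peritoneum in corn oil, and the mice were killed after 24 h. Each group had 2 arrays (8 in all), each made from RNA pooled from 4 animals, so the spread between arrays is that between pools and not between mice. The product of Ahr, the aryl hydrocarbon receptor, is a transcription factor that ligands switch on, and dioxin (TCDD) is its best known ligand. The knockout was carried by the whole animal as far as the labels say, so other cells of the spleen lacked the receptor too.

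TGF beta binds a receptor of type II (Tgfbr2), which activates a receptor of type I (Tgfbr1). The active receptor phosphorylates Smad2 and Smad3, which join Smad4 and enter the nucleus. Ski and SnoN, the product of Skil, bind these Smads there and hold their target genes off, and Smad7 blocks the receptor. Skil and Smad7 are themselves targets of the pathway. In mouse CD4 T cells the pathway restrains Th1 differentiation and takes part in the induction of regulatory T cells and Th17 cells.

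The values are log2 expression made by RMA, in which a difference of 1 is a doubling. The KO label could not be checked by Ahr, whose probe sets may lie outside the deleted part. They read 6.49 and 6.79 in KO TCDD, 7.08 and 6.60 in KO DMSO, 6.29 and 6.14 in WT TCDD, and 6.29 and 6.11 in WT DMSO (1422631_at), and 6.35 to 6.86 in KO against 6.31 to 6.64 in WT (1450695_at). The defining markers of the sorted cells were well above the median probe set mean of 6.13 in their brightest probe sets. Cd4 was at 8.16 ± 0.09 in KO and 8.37 ± 0.28 in WT, and Cd3e at 9.36 ± 0.17 in KO and 9.53 ± 0.09 in WT (mean ± SD, 4 arrays each). The other Cd4 probe set, 1427779_a_at, was dim, at 4.87 ± 0.21 in KO and 4.69 ± 0.15 in WT. For WT TCDD replicate 1 the free-text description gives KO, against WT in the title, source and strain, which were followed. Tiparp, a known target of the receptor, read 6.34 to 6.44 in KO and 7.35 to 7.73 in WT (1452160_at), with 7.35 on that array. Its probe set 1452161_at read 6.17 to 6.56 in KO and 6.72 to 6.85 in WT (6.85 on that array), and 1426721_s_at overlapped between genotypes. The 2 WT arrays numbered 2 stood apart on the first principal component of all probe sets, the main axis of spread between arrays. They lay at 40.4 (TCDD) and 49.2 (DMSO), against −36.2 to 9.10 on the other arrays. Their log2 differences between the 3′ and 5′ actin controls, a measure of RNA integrity, were the lowest, at 3.30 (TCDD) and 2.90 (DMSO). The other differences were 3.48 to 3.82 in KO and 4.56 and 3.70 on the WT arrays numbered 1.

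In KO cells the co-repressor genes Skil and Ski and the shared transducer Smad4 fell. Skil fell by 1.38 on the log2 scale in its brighter probe set, to 38.6% of the WT level. Smad4 fell by 0.99 in 1 of its 3 probe sets, and Ski fell by 0.73. The calls for Smad4 and Ski were each lost on leaving out most of the single arrays. The receptor genes Tgfbr1 and Tgfbr2 and the transducer Smad2 had negative differences in their brightest probe sets and did not pass. Of the 17 probe sets, 3 were called lower and 0 higher at a Benjamini-Hochberg (BH) adjusted p under 0.05 in limma. Over all probe sets 1.20% were called lower and 1.59% higher, and among those with a mean over the median 2.18% were called lower. At an unadjusted p under 0.05, 8 of the 17 were lower and 1 higher, against 11.3% and 9.19% of all probe sets. The median difference was −0.35 over the 17 probe sets and −0.01 over all of them. In this bulk RNA, fewer cells of a type and less RNA per cell cannot be told apart.

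**Figure D1:**
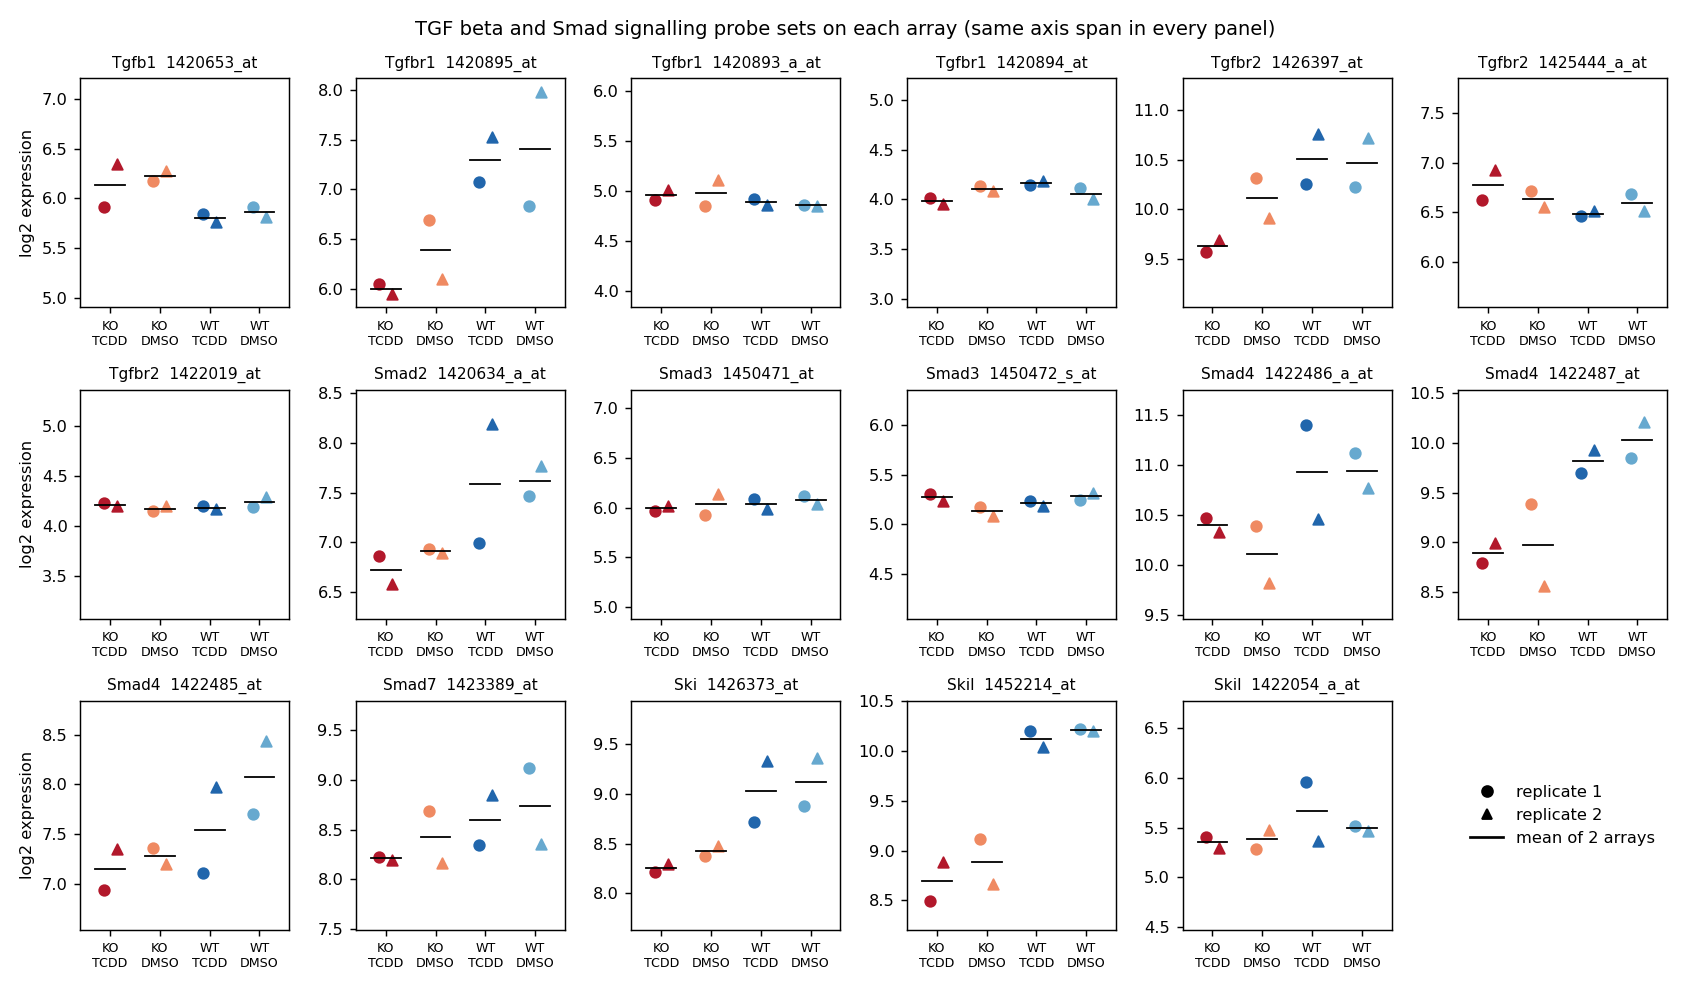
Log2 expression of the 17 probe sets on each array, 1 panel per probe set, with KO TCDD, KO DMSO, WT TCDD and WT DMSO from left to right, circles for replicate 1, triangles for replicate 2 and a bar for the mean of 2 arrays. Every panel spans the same number of log2 units, so the gap between KO and WT can be compared: Skil 1452214_at lay at 8.49 to 9.12 in KO and at 10.04 to 10.22 in WT.

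Tgfb1 encodes the ligand, made as a latent precursor by T cells and by many other cells. Its probe set 1420653_at read 5.91 and 6.35 in KO TCDD, 6.17 and 6.28 in KO DMSO, 5.84 and 5.76 in WT TCDD, and 5.91 and 5.81 in WT DMSO. The groups touched at 5.91, the value of 1 KO and 1 WT array. The difference of 0.35 (SE 0.10) was the largest positive one among the 17 probe sets, and missed the threshold (limma, BH adjusted p = 0.105). All of these levels lay close to the median probe set mean of 6.13. Platelets carry much of the TGF beta of blood, and 0 of 7 measured platelet and megakaryocyte markers were called. Their mean level was 6.33 to 6.46 in KO and 6.35 to 6.50 in WT. Markers of other cell types, some of them called higher in KO, are given below. The part of platelets or of other cells in the Tgfb1 difference was not tested.

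Tgfbr1 encodes the type I receptor kinase. Its brightest probe set, 1420895_at, read 6.05 and 5.95 in KO TCDD, 6.69 and 6.10 in KO DMSO, 7.07 and 7.53 in WT TCDD, and 6.83 and 7.98 in WT DMSO. All 4 KO arrays lay below all 4 WT arrays, and within each WT treatment replicate 2 was the higher one. The difference was −1.16 (SE 0.26, 95% confidence interval −1.75 to −0.56) and just missed the threshold (limma, BH adjusted p = 0.0549). It was −1.32 without KO DMSO replicate 1 and −1.33 without WT DMSO replicate 1, and passed there (limma, BH adjusted p = 0.0448 and 0.0472). With any other single array left out it did not pass, at an adjusted p of up to 0.153 (limma, BH). It was −0.75 without both WT arrays numbered 2 (limma, BH adjusted p = 0.208). The other probe sets of Tgfbr1 were dim, at 4.97 ± 0.11 in KO and 4.87 ± 0.03 in WT (1420893_a_at) and at 4.04 ± 0.08 in KO and 4.11 ± 0.08 in WT (1420894_at; mean ± SD, 4 arrays each). Their differences were 0.10 and −0.06.

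Tgfbr2 encodes the type II receptor, which binds the ligand first. Probe set 1426397_at read 9.57 and 9.69 in KO TCDD, 10.32 and 9.91 in KO DMSO, 10.25 and 10.76 in WT TCDD, and 10.22 and 10.72 in WT DMSO. The groups overlapped through KO DMSO replicate 1, and the WT arrays numbered 2 were again the highest. The difference of −0.62 (SE 0.19) was not called (limma, BH adjusted p = 0.121). It was −0.88 among the TCDD arrays and −0.36 among the DMSO arrays. Without both WT arrays numbered 2 it was −0.36 over the remaining arrays. Probe set 1425444_a_at of the same gene read 6.70 ± 0.16 in KO and 6.54 ± 0.10 in WT, with a difference of 0.16, and 1422019_at read 4.20 ± 0.03 in KO and 4.21 ± 0.05 in WT (mean ± SD, 4 arrays each).

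The stretches of genome just before the receptor and Ski starts are shown because the study removed a transcription factor, and its core recognition letters can be looked for there. Windows of 5 of the 9 genes were taken from the RefSeq promoter table of build GRCm38.p6: Ski, Tgfbr1, Tgfbr2, Tgfb1 and Smad3. The selection left out a whole chromosome. No window of Smad2, Smad4, Smad7 or Skil was taken, for whatever reason, so nothing is said about theirs. Each line gives the 250 bases before an annotated start, 5′ to 3′ on the strand of the gene. Capitals mark GCGTG, the core of the dioxin response element, on either strand. Ski is at chr4:155222536-155222785 on the minus strand, Tgfbr1 at chr4:47352972-47353221 on the plus strand (the first of 2 annotated starts) and Tgfbr2 at chr9:116175364-116175613 on the minus strand.
Ski: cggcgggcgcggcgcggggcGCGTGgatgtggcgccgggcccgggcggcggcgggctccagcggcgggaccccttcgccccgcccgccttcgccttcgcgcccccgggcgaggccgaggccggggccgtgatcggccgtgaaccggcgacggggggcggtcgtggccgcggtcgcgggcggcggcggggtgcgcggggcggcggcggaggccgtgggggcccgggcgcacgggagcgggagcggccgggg
Tgfbr1: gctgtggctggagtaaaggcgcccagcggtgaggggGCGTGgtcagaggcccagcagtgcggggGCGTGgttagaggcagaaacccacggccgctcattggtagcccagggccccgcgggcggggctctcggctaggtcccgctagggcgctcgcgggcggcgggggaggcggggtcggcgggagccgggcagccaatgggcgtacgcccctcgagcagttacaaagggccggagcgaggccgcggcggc
Tgfbr2: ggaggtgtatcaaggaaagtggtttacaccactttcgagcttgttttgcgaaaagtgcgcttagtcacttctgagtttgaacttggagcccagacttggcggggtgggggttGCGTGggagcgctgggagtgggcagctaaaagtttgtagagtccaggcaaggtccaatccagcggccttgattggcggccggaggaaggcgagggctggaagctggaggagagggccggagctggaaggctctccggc

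These windows hold 1 (Ski), 2 (Tgfbr1) and 1 (Tgfbr2) copies of the core, those of Tgfb1 and Smad3 hold 1 and 2, and the second Tgfbr1 start holds 0. The core occurs in 28.2% of the 32851 windows of that length in the table, and in 53.9% of the 9178 windows with at least 60% G and C. The shares of G and C were 87.6% for Ski, 74.8% for the first Tgfbr1 start and 58.4% for Tgfbr2, against a median of 52.4% over all windows. CAGAC, a core bound by Smads, was searched on both strands as well. It occurs in the Tgfbr2 window and in that of the second Tgfbr1 start, and in 42.2% of all windows, and it overlapped no GCGTG in the member windows. These matches describe letters only, and binding was not measured.

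Smad2 encodes a transducer that the receptor phosphorylates. Its only probe set, 1420634_a_at, read 6.86 and 6.58 in KO TCDD, 6.93 and 6.89 in KO DMSO, 6.99 and 8.19 in WT TCDD, and 7.47 and 7.77 in WT DMSO. All KO arrays lay below all WT arrays, by as little as 0.06 between KO DMSO replicate 1 and WT TCDD replicate 1, while the 2 WT TCDD arrays differed by 1.20. The difference of −0.79 (SE 0.23) did not pass (limma, BH adjusted p = 0.0994). It was −0.99 and passed without WT TCDD replicate 1 (limma, BH adjusted p = 0.0384). With any other single array left out it did not pass, at an adjusted p of up to 0.235 (limma, BH). It was −0.42 without both WT arrays numbered 2 (limma, BH adjusted p = 0.325).

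Smad3 encodes the other transducer of this kind. Its levels were below the median probe set mean in both genotypes. Probe set 1450471_at read 6.02 ± 0.09 in KO and 6.06 ± 0.06 in WT, and 1450472_s_at read 5.21 ± 0.09 in KO and 5.25 ± 0.05 in WT (mean ± SD, 4 arrays each). Both had a difference of −0.04 with a 95% confidence interval of −0.21 to 0.12 (limma, BH adjusted p = 0.789). The genotypes overlapped in both.

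Smad4 encodes the partner that Smad2 and Smad3 share, and also that of the bone morphogenetic protein branch. Probe set 1422487_at read 8.79 and 8.99 in KO TCDD, 9.39 and 8.56 in KO DMSO, 9.70 and 9.93 in WT TCDD, and 9.85 and 10.21 in WT DMSO. The genotypes did not overlap, and it fell by 0.99 (SE 0.18), to 50.3% of the WT level (limma, BH adjusted p = 0.0347). Each of 6 arrays, when left out alone, ended the call, with values of −1.01 to −0.87 and an adjusted p of 0.0558 to 0.101 (limma, BH). The exceptions were KO DMSO replicate 1 and WT TCDD replicate 1. The value was −0.84 without both WT arrays numbered 2 (limma, BH adjusted p = 0.18).

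The 2 other Smad4 probe sets also had negative differences and did not pass. The brightest, 1422486_a_at, read 10.47 and 10.33 in KO TCDD, 10.39 and 9.82 in KO DMSO, 11.40 and 10.46 in WT TCDD, and 11.12 and 10.77 in WT DMSO. In contrast to 1422487_at, its WT arrays numbered 2 were the lower ones of each treatment. Its difference was −0.69 (limma, BH adjusted p = 0.125), and −1.01 without both arrays numbered 2 (limma, BH adjusted p = 0.123). The third, 1422485_at, read 7.21 ± 0.20 in KO and 7.81 ± 0.56 in WT (mean ± SD, 4 arrays each). Its difference was −0.59 (limma, BH adjusted p = 0.23), and −0.19 without both WT arrays numbered 2.

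Smad7 encodes the inhibitory Smad, which recruits ubiquitin ligases to the receptor. Its probe set 1423389_at read 8.23 and 8.20 in KO TCDD, 8.69 and 8.17 in KO DMSO, 8.35 and 8.85 in WT TCDD, and 9.12 and 8.36 in WT DMSO. KO DMSO replicate 1 lay within the WT range. The difference was −0.35 (SE 0.20, 95% confidence interval −0.80 to 0.10) and was not called (limma, BH adjusted p = 0.373). The interval holds values as far below 0 as the estimate for Ski, so this does not show that Smad7 was alike in both genotypes.

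Ski encodes a nuclear co-repressor of Smad complexes, named after the viral oncogene v-ski. Its probe set 1426373_at read 8.21 and 8.30 in KO TCDD, 8.38 and 8.48 in KO DMSO, 8.72 and 9.33 in WT TCDD, and 8.88 and 9.36 in WT DMSO. The 4 KO arrays lay within 0.27 of each other and below every WT array, and the WT arrays numbered 2 were the highest. Ski fell by 0.73 (SE 0.15), to 60.3% of the WT level (limma, BH adjusted p = 0.0467). Leaving out any of 7 single arrays ended the call, with values of −0.79 to −0.63 and an adjusted p of 0.0599 to 0.135 (limma, BH), and WT TCDD replicate 1 was the exception. The difference was −0.46 without both WT arrays numbered 2 (limma, BH adjusted p = 0.164).

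Skil encodes SnoN, the relative of Ski that is degraded when the pathway is switched on and made again as one of its targets. Probe set 1452214_at read 8.49 and 8.89 in KO TCDD, 9.12 and 8.66 in KO DMSO, 10.20 and 10.04 in WT TCDD, and 10.22 and 10.20 in WT DMSO. The 4 WT arrays lay within 0.18 of each other, those numbered 1 and 2 alike, and the highest KO array was 0.92 below the lowest WT array. Skil fell by 1.38 (SE 0.13, 95% confidence interval −1.68 to −1.07; limma, BH adjusted p = 0.00467). An exact permutation test (two-sided) gave p = 0.0286, the smallest that the 70 ways of dividing 4 and 4 arrays can give. The difference was −1.43 among the TCDD arrays and −1.32 among the DMSO arrays.

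The call for Skil was kept on leaving out each of the 8 arrays in turn, with values of −1.49 to −1.27 and an adjusted p of 0.00655 to 0.0208 (limma, BH). Without both WT arrays numbered 2 the value was −1.42, and the adjusted p was 0.0561 (limma, BH), in a comparison of 4 with 2 arrays. The other Skil probe set, 1422054_a_at, was dim, at 5.37 ± 0.09 in KO and 5.58 ± 0.26 in WT (mean ± SD, 4 arrays each). Its difference of −0.21 did not pass (limma, BH adjusted p = 0.412), so the result for Skil rests on 1 of 2 probe sets.

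**Figure D2:**
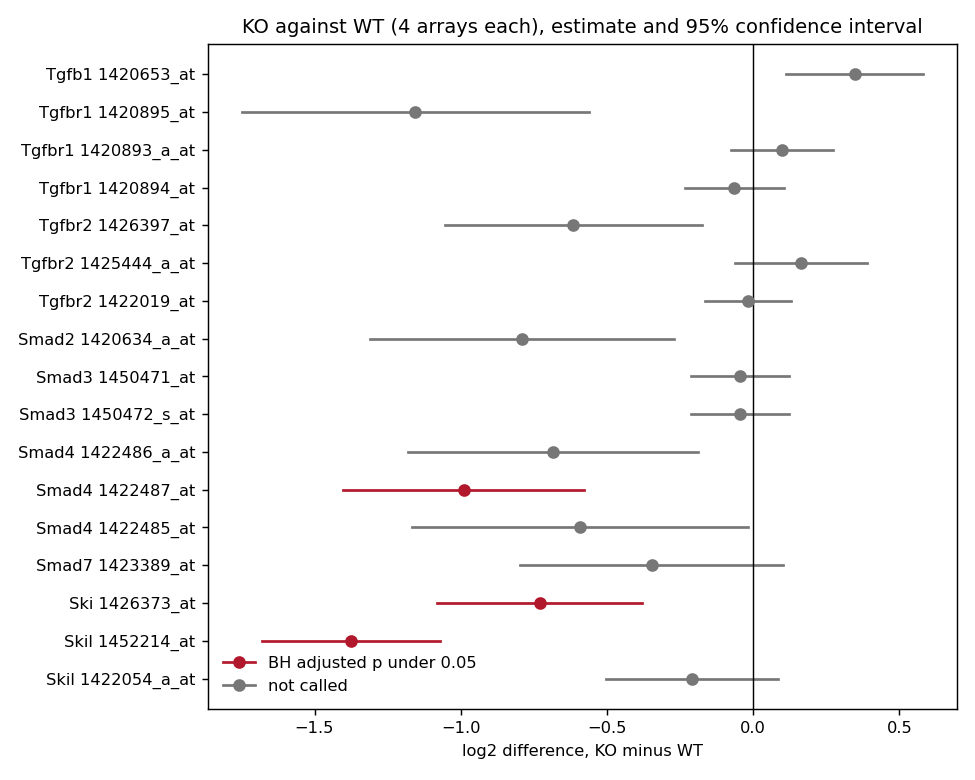
Log2 difference of KO minus WT for each of the 17 probe sets (4 arrays per genotype), with points for the limma estimate, lines for the 95% confidence interval and red for a BH adjusted p under 0.05. The called probe sets of Skil, Smad4 and Ski lie at −1.38, −0.99 and −0.73, the probe set of Tgfb1 at 0.35, and both Smad3 probe sets at −0.04.

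Together, 5 of the 17 probe sets had all 4 KO arrays below all 4 WT arrays (Tgfbr1, Smad2, Smad4, Ski and Skil, 1 each), and 0 had them above. Over all probe sets 6.67% lay below and 5.67% above, and 8.95% of those with a mean over the median lay below. With each gene read by its brightest probe set, 8 of the 9 genes had a negative difference, against 49.3% of all 12393 genes, and the median was −0.69, against 0.01. Of the 9, 2 were called lower (Ski and Skil), since the brightest Smad4 probe set did not pass. On the same basis 1.33% of all 12393 genes were called lower. In 3 smaller sets of arrays 0 of the 17 probe sets were called, and counts are at an unadjusted p under 0.05 (limma). Among the TCDD arrays 5 were lower and 0 higher, against 5.15% and 7.37% of all probe sets. Among the DMSO arrays 6 were lower and 1 higher, against 4.23% and 2.59%. Without both WT arrays numbered 2, 7 were lower and 0 higher, against 8.29% and 5.86%. The 9 genes share libraries and were chosen with earlier results of these data known. These counts therefore describe the 8 arrays and are not independent pieces of evidence.

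Across the 8 arrays the brightest probe sets of Tgfbr1, Tgfbr2, Smad2 and Ski varied together. Pearson's r was 0.95 between Tgfbr1 and Tgfbr2, 0.94 between Smad2 and Ski and 0.93 between Tgfbr1 and Ski. In these 4 genes the WT arrays numbered 2 were higher than those numbered 1 in both treatments, and these arrays also had the lowest actin differences. Smad4 (1422486_a_at) correlated with Ski at 0.35 and with Skil at 0.77, and Tgfb1 correlated negatively with each of the genes but Smad3, at −0.76 with Tgfbr1 and −0.41 with Smad7. All points share the split by genotype, so these are descriptions over 8 arrays and 4 groups. With the actin difference as a covariate 7 of the 17 probe sets were called lower, against 1125 of all probe sets. The part of RNA integrity in the differences was not tested beyond that.

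The genes most like the called probe sets over the 8 arrays were taken from 10310 other probe sets with a mean over the median. For Skil they were Tmem62 (Pearson's r = 0.98), Aebp2, which encodes a cofactor of Polycomb repressive complex 2 (0.98), and Ggnbp2 (0.98). For Ski they were Donson, a replication fork factor (0.98), the cytokine receptor kinase Jak1 (0.98) and the exosome nuclease Dis3 (0.98). For Smad4 (1422487_at) they were the glycosyltransferase Galnt1 (0.99), Smc5, a subunit of a chromosome maintenance complex (0.99), and Atp1b1, a sodium pump subunit (0.99). The 3 called probe sets were matched over the same 8 arrays, which differ in genotype.

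TCDD did not change any of these genes detectably in either genotype. In KO, 0 of the 17 probe sets were called and 0 had an unadjusted p under 0.05, with differences of −0.49 (Tgfbr2 1426397_at) to 0.30 (Smad4 1422486_a_at). In WT, 0 were called and 0 had an unadjusted p under 0.05, with differences of −0.53 (Smad4 1422485_at) to 0.17 (Skil 1422054_a_at). Limma called 0% of all probe sets in each comparison, and 1.69% in KO and 2.79% in WT had an unadjusted p under 0.05. The receptor target Tiparp read 7.35 and 7.73 in WT TCDD and 7.62 and 7.42 in WT DMSO (1452160_at). In WT its TCDD and DMSO values overlapped in 1452161_at and 1426721_s_at too. Whether the dose acted on the receptor in these cells was not tested. For Skil 1452214_at, TCDD minus DMSO was −0.20 in KO (95% confidence interval −0.68 to 0.28) and −0.09 in WT (−0.57 to 0.39). For Ski it was −0.17 in KO (−0.75 to 0.40) and −0.10 in WT (−0.67 to 0.48).

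For Smad7, an early target of the pathway, TCDD minus DMSO was −0.21 in KO and −0.14 in WT. For Tgfbr2 1426397_at it was −0.49 in KO and 0.04 in WT, since both KO TCDD arrays lay below both KO DMSO arrays. The difference between these effects, −0.52 (SE 0.35), did not pass (limma, BH adjusted p = 0.998). None of the 17 probe sets had a called difference of TCDD effects, and 0 had an unadjusted p under 0.05, against 0% and 2.78% of all probe sets. With 2 arrays per group the intervals in KO reached −1.34 for Tgfbr1 1420895_at and −1.07 for Smad2, further than the KO against WT differences of these genes, so TCDD effects of that size were not excluded.

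**Figure D3:**
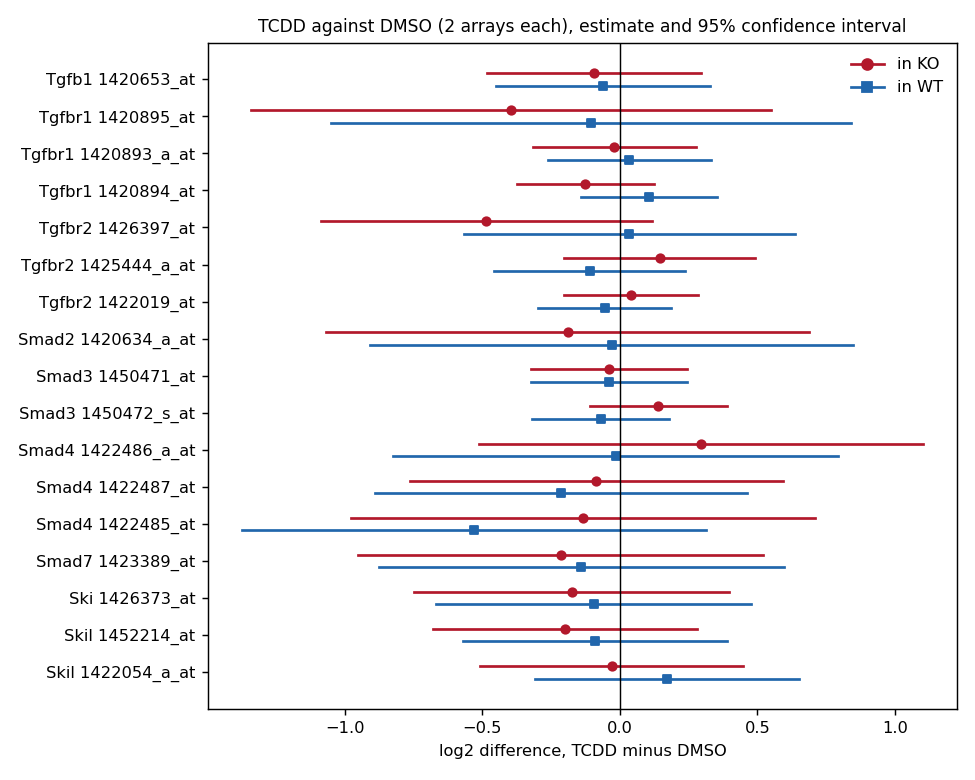
Log2 difference of TCDD minus DMSO for each of the 17 probe sets in KO (red circles) and in WT (blue squares), 2 arrays per group, with lines for the 95% confidence interval. Every interval crosses 0, and those of Tgfbr1 1420895_at are the widest, at −1.34 to 0.55 in KO and −1.05 to 0.84 in WT.

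The rest of the pathway was read through lists of other genes, and those called lay beyond the ligands and receptors. Over all probe sets 1.20% were called lower and 1.59% higher. At an unadjusted p under 0.05 (limma), 11.3% of all probe sets were lower and 9.19% higher. Of 15 measured genes of ligands and the latent complex and 16 of family receptors and their adaptors, 0 were called in KO against WT, with medians of −0.03 and 0.00 over 23 and 33 probe sets. Of 17 nuclear partners and co-repressors, 0 were called (median −0.04). At an unadjusted p under 0.05 these 3 lists held 0, 3 and 6 lower and 0, 2 and 0 higher probe sets (limma). Tgif1, a co-repressor of Smads besides Ski and Skil, read 5.68 ± 0.22 in KO and 5.75 ± 0.37 in WT, and the co-receptor gene Tgfbr3 read 6.31 ± 0.14 in KO and 6.02 ± 0.12 in WT (mean ± SD, 4 arrays each).

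Of 24 other Smads and regulators of Smad turnover, 2 fell and 0 rose. Ppm1a, a phosphatase that removes the activating phosphates of Smad2 and Smad3, read 8.47 and 8.41 in KO TCDD, 8.86 and 8.31 in KO DMSO, 9.30 and 9.56 in WT TCDD, and 9.20 and 9.55 in WT DMSO (1415678_at). Its groups did not overlap, and it fell by 0.89 (limma, BH adjusted p = 0.0218), while its 3 other probe sets were dim and not called. Itch, a ubiquitin ligase that restrains T cell activation, read 8.30 ± 0.05 in KO and 8.72 ± 0.05 in WT (mean ± SD, 4 arrays each) and fell by 0.42 (limma, BH adjusted p = 0.0226). The calls of Ppm1a and Itch were both lost without KO TCDD replicate 1 or 2, WT TCDD replicate 2 or WT DMSO replicate 2, with an adjusted p of 0.0651 to 0.0822 (limma, BH). Itch was also not called after quantile normalization once more, at −0.34 (limma, BH adjusted p = 0.0904). Smad1 and Smad5, transducers of the bone morphogenetic protein branch, had differences of −1.03 (1448208_at) and −0.64 (1451873_a_at) and just missed the threshold (limma, BH adjusted p = 0.0546 and 0.0531). Each has another probe set, 1416081_at for Smad1 and 1421047_at for Smad5, which was not called either. The list's median was −0.10 over 50 probe sets, of which 2 were called lower. At an unadjusted p under 0.05, 15 of them were lower and 2 higher (limma).

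Of 19 genes of the branch that does not use Smads, 4 fell and 0 rose. Of the list's 48 probe sets 4 were called lower, and at an unadjusted p under 0.05, 11 were lower and 0 higher (limma). The genes that fell were Ppp2ca, the catalytic subunit of protein phosphatase 2A (by 1.43), the phosphoinositide 3-kinase subunit Pik3r1 (by 1.08), Tab2, the adaptor of the kinase TAK1 (by 0.94), and Map2k4, which activates JNK (by 0.64). Their adjusted p lay between 0.0132 and 0.0409 (limma, BH). Ppp2ca 1417367_at read 8.30 and 8.15 in KO TCDD, 8.76 and 8.13 in KO DMSO, 9.22 and 10.33 in WT TCDD, and 9.28 and 10.23 in WT DMSO, so the WT arrays numbered 2 were about 1 log2 unit above those numbered 1. Without them its difference was −0.92 (limma, BH adjusted p = 0.13). Each of the 4 genes had at least 1 other probe set that was not called. Leaving out each of the 8 arrays in turn kept the call for Tab2 every time, and for the others 2 or 3 times.

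Genes known as targets of TGF beta had called members in the list of induced genes and in that of repressed genes. The first of these lists holds Ahr itself, and shares Smad6, Tgif1, Pmepa1 and Ldlrad4 with other lists. Of 20 measured genes known as induced by it, 2 rose and 0 fell, and the median over 35 probe sets was 0.02. At an unadjusted p under 0.05, 6 of these probe sets were higher and 3 lower (limma). Id2, an inhibitor of E proteins, rose by 1.08 in 1 of its 3 probe sets (1435176_a_at, 10.48 ± 0.32 in KO and 9.39 ± 0.40 in WT cells; limma, BH adjusted p = 0.0428), and the matrix protein gene Tgfbi rose by 1.05 and 0.81 in 2 of its 4. Id2 lost its call on leaving out any of the 8 arrays, with values of 0.91 to 1.24 and an adjusted p of 0.0503 to 0.124 (limma, BH), and the Tgfbi probe sets kept theirs in 2 (1456250_x_at) and 1 (1437463_x_at) of the 8 fits. Klf10, an immediate target of the pathway, read 5.67 ± 0.56 in KO and 7.02 ± 0.72 in WT (mean ± SD, 4 arrays each), with a difference of −1.35 that did not pass (limma, BH adjusted p = 0.0981). The master regulator of regulatory T cells, Foxp3, read 6.45 ± 0.14 in KO and 6.40 ± 0.45 in WT. Itgae, whose integrin TGF beta induces on T cells, read 6.43 ± 0.07 in KO and 6.51 ± 0.14 in WT (mean ± SD, 4 arrays each).

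Of 19 measured genes known as repressed by TGF beta in T cells, 3 rose and 0 fell, with a median of 0.10 over 36 probe sets. The list went both ways: at an unadjusted p under 0.05 it held 7 higher and 5 lower probe sets (limma; 9.19% and 11.3% of all), and 4 lay wholly above WT and 4 wholly below (5.67% and 6.67% of all). Interferon gamma, Ifng, read 10.36 and 9.99 in KO TCDD, 10.06 and 9.79 in KO DMSO, 8.44 and 7.68 in WT TCDD, and 8.99 and 6.79 in WT DMSO. Every KO array was higher than every WT array, and it rose by 2.08 (limma, BH adjusted p = 0.0418). The difference was 1.34 without both WT arrays numbered 2 (limma, BH adjusted p = 0.0835). Klrg1, a receptor of effector T and NK cells, rose by 1.31 and the cell cycle kinase gene Cdk4 by 0.52 (limma, BH adjusted p = 0.00896 and 0.0471), Cdk4 in 1 of 3 probe sets. Klrg1 kept its call on leaving out each of the 8 arrays, Ifng on leaving out 2 of them and Cdk4 on leaving out 0. Without both WT arrays numbered 2, 0 genes of any of the 7 lists were called, and 28 of all probe sets were.

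**Figure D4:**
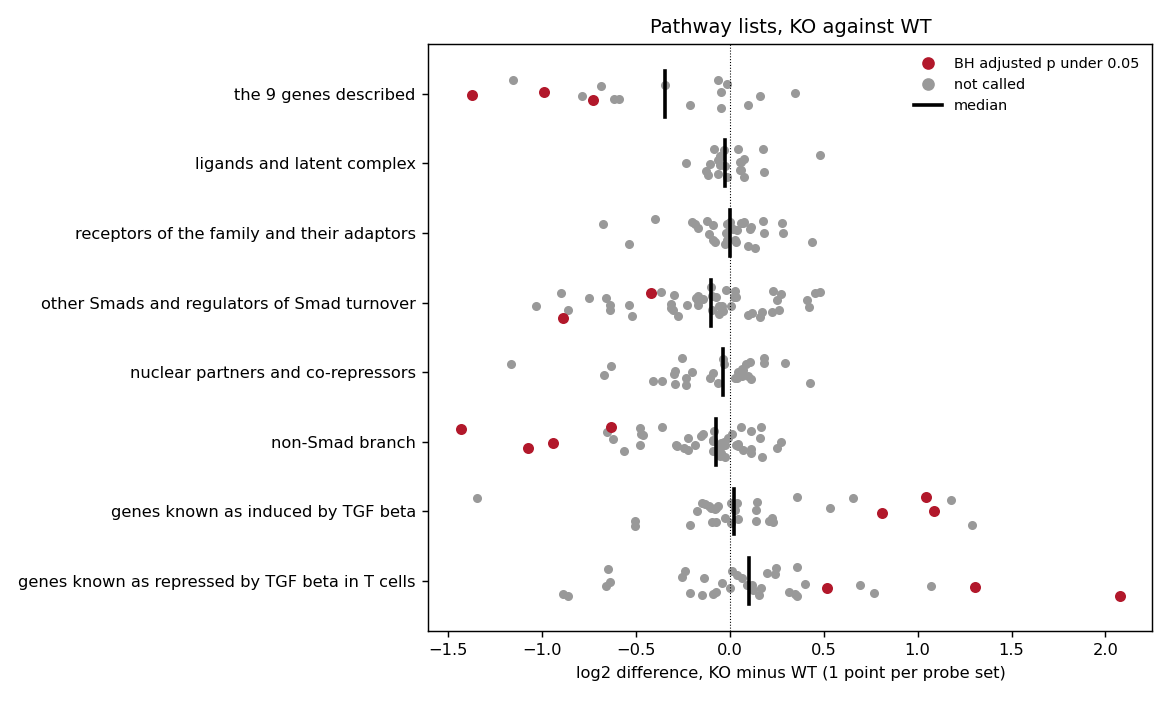
Log2 difference of KO minus WT for the probe sets of the 9 genes described (top row) and of each list of other pathway genes, 1 point per probe set, with red for a BH adjusted p under 0.05 and a black bar for the median. The medians were −0.35 for the 9 genes and −0.10 to 0.10 for the lists, with called points on the left in the lists of Smad turnover and of the non-Smad branch and on the right in both target lists.

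Markers of other cell types moved with genotype beside these results. A marker, like a gene of the lists above, counted as called if at least 1 of its probe sets was. Of 10 macrophage and monocyte markers 5 rose and 0 fell, and their mean log2 level was 6.87 to 7.32 in KO and 6.10 to 6.33 in WT. Of their 14 probe sets 6 were called higher, against 1.59% of all probe sets. Of 7 measured dendritic cell markers 5 rose and 0 fell (7.59 to 8.23 in KO and 6.23 to 6.76 in WT), and of 7 NK and CD8 T cell markers 1 rose (6.58 to 7.10 in KO and 6.36 to 6.74 in WT). Called higher were 8 of the 15 dendritic cell probe sets and 1 of the 9 NK and CD8 T cell probe sets. Of 8 CD4 T cell markers (9.32 to 9.55 in KO and 9.21 to 9.62 in WT), 7 B cell markers (6.14 to 6.56 in KO and 5.98 to 6.35 in WT) and 4 red cell markers (5.80 to 6.21 in KO and 5.56 to 5.95 in WT), 0 were called. The 13 CD4 T cell probe sets differed by −1.10 to 0.90, so their mean level hides moves both ways. At an unadjusted p under 0.05 (limma), 1 was lower and 1 higher, against 11.3% and 9.19% of all probe sets. RMA gives no value of 0, so no marker could be read as absent. Macrophages and dendritic cells also express Tgfbi and Id2, and NK cells Ifng and Klrg1. The part of such cells in the differences described here was not tested.

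**Figure D5:**
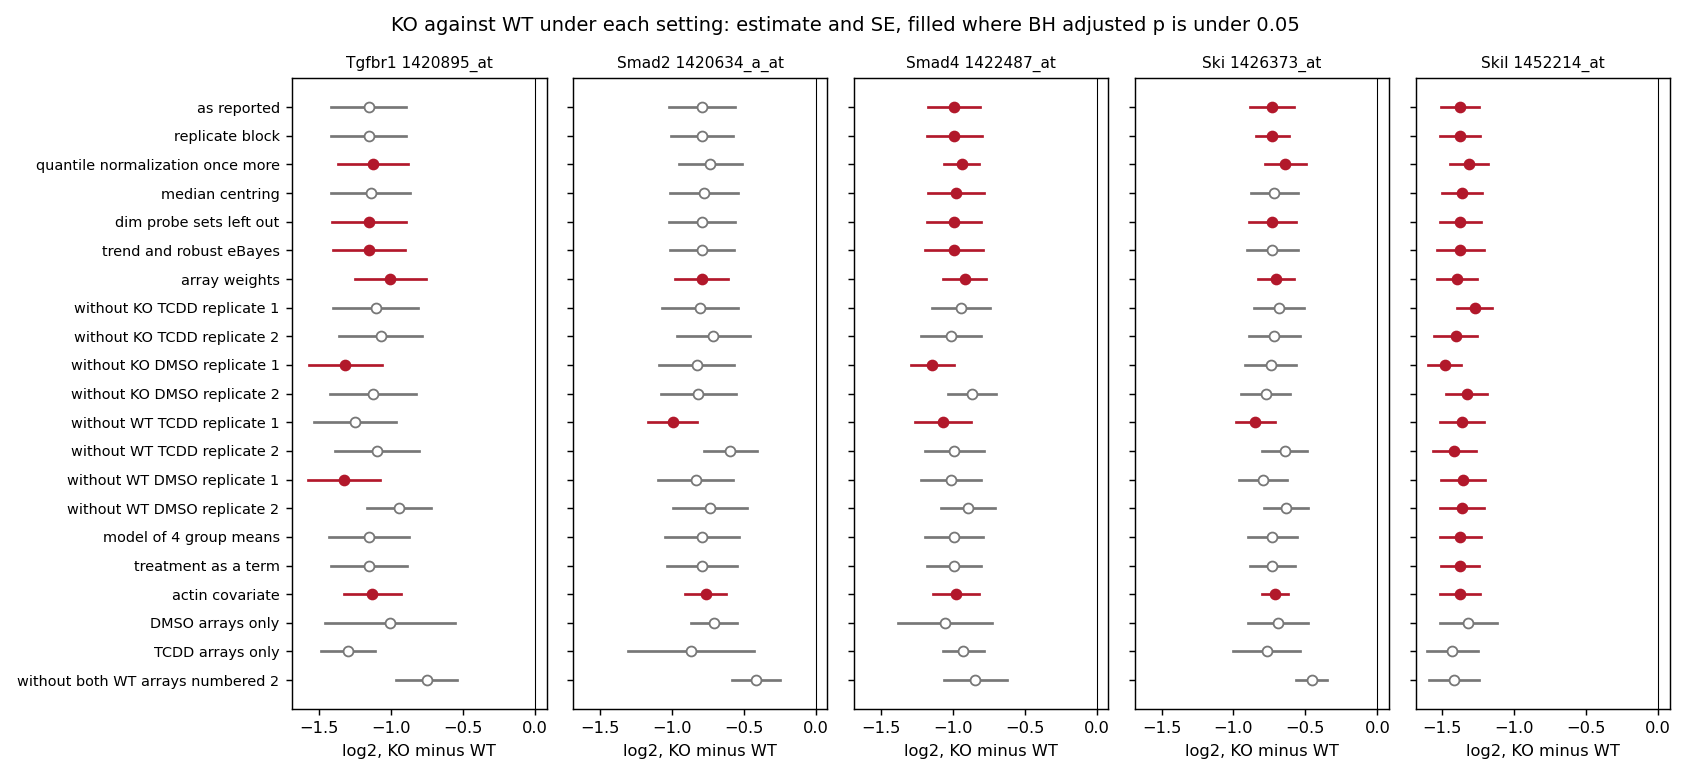
Log2 difference of KO minus WT for the 5 probe sets whose genotypes did not overlap, under the reported setting and each alternative, with lines for the SE and filled red points for a BH adjusted p under 0.05. Skil 1452214_at kept its size in every setting, between −1.49 and −1.27, while Ski and Smad2 came closest to 0 without both WT arrays numbered 2, at −0.46 and −0.42.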

How the data were processed

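The deposited values were log2 expression that the authors had made with RMA (background correction, normalization between arrays and summary per probe set). The tools RMA and affy are named in the submitters' processing notes, without versions. Of 22690 probe sets, 64 Affymetrix controls were left out of the tests. The array annotation gave 1 symbol for 20380 probe sets, several for 691 and none for 1555, and 0 symbols were updated through RefSeq.

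Groups were taken from the titles. KO and WT were set against each other over all 8 arrays, as in the series' design text. The TCDD comparisons in KO and in WT, and the difference between them, came from a model of 4 group means. All fits used limma 3.58.1 (lmFit, eBayes) in R 4.3.3 on all 22626 probe sets, with BH adjustment over all of them. The KO against WT fit and the TCDD comparison in WT were tested on simulated data, in which the arrays varied independently. Single levels also had an exact two-sided permutation test. Arrays of a group shared at most 2.85% identical values and none was a duplicate. Arrays carry no read depth, so their number limits the precision.

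The 9 genes and the lists were chosen with earlier results of these data known. Besides the 9 genes, the text names the called genes of each list, the 3 genes most correlated with each called member, and Ahr, Tiparp, Cd4 and Cd3e as checks. Tgif1, Tgfbr3, Smad1, Smad5, Klf10, Foxp3 and Itgae were picked with their values in view. Alternatives covered a replicate block, normalization, filters, moderation, weights, models, subsets, thresholds and each array left out.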

Additional observations from a re-analysis of the deposited data

Results flagged for a closer look

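Among the 34 sets of 4 arrays (17 probe sets in KO and in WT), 3 held an array far from the other 3 of its genotype. Chance gives about 1 in 20. Smad7 read 8.69 on KO DMSO replicate 1, with the next KO array at 8.23. Skil 1452214_at read 10.04 on WT TCDD replicate 2, with the next WT array at 10.20, still 0.92 above the highest KO array. Tgfbr1 1420893_a_at read 4.92 on WT TCDD replicate 1, with the next at 4.86, a gap of 0.06 in a dim probe set.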

How the results depend on the processing

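The negative differences of the 5 probe sets whose genotypes did not overlap kept their direction in each of 20 alternatives. Skil was called in 17 of the 20, Smad4 1422487_at in 9, Tgfbr1 in 7, Ski in 6 and Smad2 in 3. Of the 17 probe sets, 3 were called lower as reported, 1 to 4 on leaving out 1 array, 6 with array weights, 7 with the actin covariate, 1 in the model of 4 group means, 1 with treatment as a term, 5 at an adjusted p under 0.10 and 1 under 0.01. The count was 0 in the DMSO arrays alone, the TCDD arrays alone and without both WT arrays numbered 2. None was called higher in any setting.

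Over all probe sets 271 were lower and 360 higher. Leaving out 1 array gave 29 to 379 lower and 77 to 288 higher. Lower and higher counts were 427 and 558 after quantile normalization once more, 184 and 375 after median centring, 460 and 424 when dim probe sets were dropped, 727 and 877 with array weights, 38 and 123 in the model of 4 group means, 74 and 125 with treatment as a term and 1125 and 709 with the actin covariate. They were 6 and 22 without both WT arrays numbered 2, 903 and 838 at an adjusted p under 0.10, 10 and 46 under 0.01, and 0 and 0 in the DMSO or the TCDD arrays alone, with fewer arrays to fit. The cause of the other changes was not tested.

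The replicate numbers did not pair the arrays across all groups. The deviations of same-numbered arrays correlated at 0.63 between the WT groups, but at −0.29 to 0.22 over the 5 other pairs of groups. The reported KO against WT fits and the permutation test took the 4 WT arrays as independent. Their p-values make no allowance for the 0.63. With a replicate block 4 of the 17 probe sets were called lower, among them the brightest Smad4 probe set (−0.69; limma, BH adjusted p = 0.0484), and 0 for TCDD. Of 693 values of the TCDD comparisons under alternatives 0 were called, and of the dim KO against WT values 6 changed sign without a call.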
